A study of Mus musculus with 4 samples.

Results

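A cytotoxic T cell kills by 2 routes, and the 10 genes described here belong to both: Prf1, Srgn, Cst7 and Nkg7 for the content of the lytic granule, Unc13d, Rab27a and Stx11 for its release, and Fasl, Tnfsf10 and Fas for the death ligands and a death receptor. They were chosen by name, as listed genes of cytotoxic granule content, granule release and death signalling, and all 10 were found among 49490 genes of the deposited table. In the granule route, perforin opens pores in the target membrane and lets granzymes enter, the proteoglycan serglycin packs these cargo proteins, and a docking and fusion machinery carries the granule to the synapse and releases it. In the ligand route, Fas ligand and TRAIL on the T cell bind death receptors on the target and start a caspase cascade. Activated CD8+ T cells are known for strong expression of both sets, and inherited loss of perforin, of Munc13-4, of Rab27a or of syntaxin 11 impairs killing.

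Polyadenylated RNA was sequenced from mouse CD8+ T cells that had been taken from spleen and lymph nodes and activated in vitro, in 4 libraries. Of these, 2 were labelled WT, for cells that the series describes as Irf8fl/fl, and 2 were labelled Irf8 knockout, described as Irf8-/-. The sources used here name no Cre line, strain, age, stimulus or time in culture. Nor do they state whether replicates stem from different animals or cultures, so p-values speak only of the spread among these libraries, which may be technical.

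Recovered reads per library lay between 58899365 and 59724952. Irf8 (chromosome 8, 120736358 to 120756694, plus strand, mm10), the targeted gene, had 6364 and 6081 normalized counts (reads divided by the library's size factor) in the WT-labelled libraries and 89508 and 90222 in the knockout-labelled ones. The gene is thus opposite to the labels, for which reason the groups are called WT-labelled and knockout-labelled, and differences are given as the second minus the first. Of all genes tested, 19.9% were called higher and 13.4% lower. Of 17 T cell identity genes 16 fell (median log2 difference -0.60). With CD3 scaling, described later, 11 of them were called higher and 0 lower, beside 71.9% and 0.348% of all genes. The 17 include the 4 CD3 complex genes on which that scaling rests. The knockout-labelled libraries also carried markers of other cells. Of 15 plasmacytoid dendritic cell markers, Irf8 among them, 13 reached 10 in both WT-labelled libraries, and all 13 rose. Over the 15 genes the summed normalized counts were 24460 and 24103 in the WT-labelled libraries but 395065 and 394926 in the knockout-labelled ones. Among markers of conventional dendritic cells and macrophages 9 rose and 6 fell of 19 tested, with sums of 56370 and 58876 against 456854 and 460853. Among the 5 B cell markers that reached 10 in both WT-labelled libraries 3 rose and 0 fell, with list sums of 7938 and 7552 against 38752 and 38539. Of 13 neutrophil and mast cell markers 3 were not tested and 6 passed the filter with a WT-labelled value below 10, so only the other 4 are counted, of which 4 rose. The sums over the list were 352 and 445 against 3316 and 3373. Of 7 CD4 and regulatory T cell markers 2 rose, Cd4 and Ikzf2, and 2 fell, Ctla4 and Il2ra. Cd4 went from 131 and 127 to 8243 and 8153, while Ctla4 went from 21906 and 21037 to 13174 and 13407. Foxp3 was near 0, with 10.2 and 19.4 in the WT-labelled libraries and 6.86 and 11.7 in the others. Zbtb7b (1331 and 1286 against 1555 and 1423) and Cd40lg (282 and 383 against 226 and 204) were not called. The part that these cells have in the changes below was not tested. Fewer T cells in a library and less RNA per T cell cannot be told apart in bulk RNA.

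Of the 10 genes, 6 fell and 0 rose from WT-labelled to knockout-labelled libraries at an adjusted p under 0.05 (limma on log2 of the normalized count + 1, adjusted over 18378 genes), where 13.4% of all genes tested were called lower and 19.9% higher, together 33.4%. The genes that fell were Nkg7, Cst7, Prf1, Fasl, Tnfsf10 and Stx11, and the others were Srgn, Rab27a, Fas and Unc13d. The median log2 difference of the 10 genes was -0.49, beside 0.02 over all genes tested. WT-labelled and knockout-labelled values were free of overlap in 7 genes that were lower and in 1 that was higher, Unc13d, where 32.3% of all genes tested were lower and 36.5% higher without overlap, together 68.8%. The fall was concentrated at one size: 5 of the 6 differences lay between -0.66 and -0.84, which left 55.6% to 63.6% of the WT-labelled mean, while Stx11 changed by -0.32 and kept 80.1%. All 10 genes had passed the filter on low values in both groups. When each library was centred on its median gene, which shifted the all-gene median by itself from 0.02 to -0.28, 10 of the 10 genes were called lower and 0 higher, beside 39.2% of all genes lower and 13% higher, and Unc13d turned from 0.06 to -0.24.

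**Figure D1:**
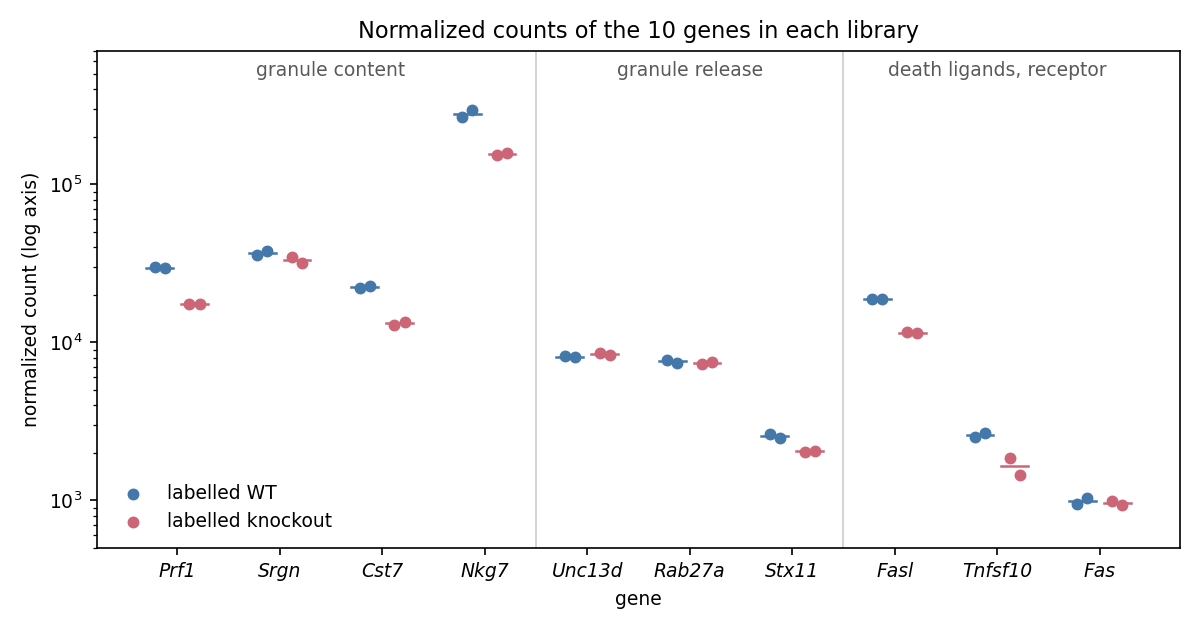
Normalized counts on a log axis for the 10 genes, in the order of their roles, with 1 point per library and a short line at the mean of each group of 2 libraries. The points of Prf1, Cst7, Nkg7, Fasl and Tnfsf10 in the knockout-labelled libraries lie clear below those of the WT-labelled libraries, whereas those of Rab27a and Fas overlap.

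Perforin, the pore-forming protein encoded by Prf1 (ENSMUSG00000037202.6, chromosome 10, 61297833 to 61304680, plus strand, mm10), gave 29928 and 29397 normalized counts in the WT-labelled libraries and 17413 and 17535 in the knockout-labelled ones. Both knockout-labelled values lay well under both WT-labelled values, with group means of 29662 ± 376 and 17474 ± 86.2 (SD, n = 2 each). Prf1 was therefore 1.70-fold lower, with a log2 difference of -0.76, a standard error of 0.03 and a limma adjusted p of 1.19e-05. Leaving out each library in turn kept the difference between -0.78 and -0.75.

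Nkg7 (ENSMUSG00000004612.9, chromosome 7, 43437073 to 43438249, plus strand) encodes a membrane protein of cytotoxic granules that takes part in their exocytosis. Its normalized counts were 265124 and 293308 in the WT-labelled libraries and 153216 and 157452 in the knockout-labelled ones. The groups were far apart, although the WT-labelled pair differed more than most pairs here. Nkg7 was 1.80-fold lower, the largest fall of the 10 genes (log2 difference -0.84, standard error 0.05, limma adjusted p = 4.68e-05). Nkg7 was also by far the most abundant of the 10 genes, and it took most of their joint share of reads. Together the 10 genes held 0.657% and 0.695% of all reads in the WT-labelled libraries and 0.432% and 0.435% in the others, and without Nkg7 0.214% and 0.214% against 0.168% and 0.163%.

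Cst7 (ENSMUSG00000068129.5, chromosome 2, 150570415 to 150578944, plus strand) encodes cystatin F, an inhibitor of the cathepsins that process granzymes. It gave 22055 and 22738 normalized counts in the WT-labelled libraries and 12870 and 13469 in the knockout-labelled ones. Again both pairs were tight and apart, and the gene was 1.70-fold lower (log2 difference -0.77, standard error 0.04, limma adjusted p = 2.98e-05). Within a library, the ratio of Prf1 to Nkg7 moved little between the groups, with values of 0.113 and 0.1002 in the WT-labelled libraries and 0.114 and 0.111 in the others.

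Srgn (ENSMUSG00000020077.14, chromosome 10, 62493833 to 62527451, minus strand), which encodes the granule proteoglycan serglycin and is also expressed in myeloid and mast cells, was the one granule content gene without a call. Its normalized counts were 35688 and 37997 in the WT-labelled libraries and 34417 and 31932 in the knockout-labelled ones. The knockout-labelled values were lower without overlap, but the gap between the nearest values was smaller than the difference within either pair. The log2 difference was -0.15 (95% interval -0.27 to -0.03) and did not pass by limma (adjusted p = 0.0560). It passed by edgeR on the recovered reads (adjusted p = 0.0356), and the adjusted p lay between 0.00761 and 0.346 over the alternatives other than median centring and CD3 scaling. The authors' deposited table gives Srgn an adjusted p of 0.0103. Prf1 per Srgn went from 0.839 and 0.774 in the WT-labelled libraries to 0.506 and 0.549 in the knockout-labelled ones, so the pore protein and its carrier did not keep 1 ratio.

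Of the 3 genes of granule release 1 fell, Stx11. Unc13d (ENSMUSG00000057948.12, chromosome 11, 116062095 to 116077961, minus strand) encodes Munc13-4, which primes docked granules for fusion. Its normalized counts were 8148 and 8056 in the WT-labelled libraries and 8571 and 8337 in the knockout-labelled ones. The knockout-labelled values were higher by a small margin and the difference did not pass (log2 difference 0.06, 95% interval -0.03 to 0.16, limma adjusted p = 0.279).

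Rab27a (ENSMUSG00000032202.11, chromosome 9, 73044854 to 73097629, plus strand) encodes the small GTPase that tethers granules at the membrane. It gave 7729 and 7432 normalized counts in the WT-labelled libraries and 7302 and 7484 in the knockout-labelled ones, and the groups overlapped. The difference was -0.04 on the log2 scale (95% interval -0.14 to 0.07, limma adjusted p = 0.562). The annotation places a processed pseudogene, Gm27186, over 149 of its exonic bases on the same strand, so a small part of its reads could be split.

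Stx11 (ENSMUSG00000039232.12, chromosome 10, 12938209 to 12964298, minus strand) encodes syntaxin 11, the membrane fusion protein that pairs with Munc18-2. Its normalized counts were 2637 and 2469 in the WT-labelled libraries and 2030 and 2060 in the knockout-labelled ones. The groups were apart, and Stx11 was 1.25-fold lower (log2 difference -0.32, standard error 0.06, limma adjusted p = 0.01003). The call was lost when knockout-labelled replicate 1 (adjusted p = 0.111) or replicate 2 (adjusted p = 0.103) was left out, with differences of -0.31 and -0.33. Prf1 per Unc13d was 3.67 and 3.65 in the WT-labelled libraries and 2.03 and 2.103 in the others, so cargo and priming factor did not keep 1 ratio either.

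Of the death ligands, Fasl (ENSMUSG00000000817.10, chromosome 1, 161780689 to 161788495, minus strand), the gene of Fas ligand, gave 18863 and 18815 normalized counts in the WT-labelled libraries and 11561 and 11448 in the knockout-labelled ones. The spread within each pair was small against the gap, and Fasl was 1.64-fold lower (log2 difference -0.71, standard error 0.03, limma adjusted p = 1.98e-05). Its size was close to that of Prf1, and Prf1 per Fasl was 1.59 and 1.56 in the WT-labelled libraries and 1.51 and 1.53 in the others.

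Tnfsf10 (ENSMUSG00000039304.11, chromosome 3, 27317028 to 27342427, plus strand) encodes TRAIL, a death ligand that interferon also induces. It gave 2532 and 2649 normalized counts in the WT-labelled libraries and 1844 and 1452 in the knockout-labelled ones. Both knockout-labelled values were under the WT-labelled ones, yet they differed from each other more than in any other of the 10 genes relative to their level. Tnfsf10 was 1.57-fold lower (log2 difference -0.66, standard error 0.12, limma adjusted p = 0.00620). Its size hung on the knockout-labelled libraries, with -0.49 (adjusted p = 0.0484) without replicate 2 and -0.83 without replicate 1.

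Fas (ENSMUSG00000024778.13, chromosome 19, 34290666 to 34327772, plus strand) encodes the receptor of Fas ligand, through which activated T cells themselves can be killed. Its normalized counts were 946 and 1035 in the WT-labelled libraries and 995 and 928 in the knockout-labelled ones. The groups overlapped, and the difference was -0.04 on the log2 scale (95% interval -0.27 to 0.18, limma adjusted p = 0.753). Ligand and receptor did not keep 1 ratio, as Fasl per Fas was 19.9 and 18.2 in the WT-labelled libraries and 11.6 and 12.3 in the knockout-labelled ones. The smallest two-sided p of an exact permutation test of such a ratio is 0.3333 with 2 libraries in each group, and the ratios are given as values only.

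Compared per length, as reads per kilobase of merged exons, scaled to the library total (RPKM), the order of the levels was much the same in both groups. Nkg7 led with 5051 ± 299 in the WT-labelled libraries and 2935 ± 56.4 in the knockout-labelled ones (SD, n = 2 each). Cst7 followed with 376 ± 3.51, Srgn with 277 ± 8.90, Prf1 with 189.9 ± 4.72 and Fasl with 161 ± 2.26 in the WT-labelled libraries. In the knockout-labelled libraries, Srgn (261 ± 13.8) stood above Cst7 (231 ± 7.40), with Prf1 at 117 ± 0.567 and Fasl at 103 ± 0.721 (SD, n = 2 each). The release genes were lower, Rab27a at 32.3 ± 1.29 and Unc13d at 28.6 ± 0.580 in the WT-labelled libraries, and 32.9 ± 0.572 and 31.2 ± 0.615 in the others. Stx11, Tnfsf10 and Fas lay lowest. Stx11 had 10.04 ± 0.589 and 8.39 ± 0.0848, Tnfsf10 8.13 ± 0.160 and 5.41 ± 0.909, and Fas 7.95 ± 0.407 and 8.05 ± 0.397, in the same order of groups. Tnfsf10 and Fas did not differ beyond their spread in the WT-labelled libraries, nor did Stx11 and Fas in the knockout-labelled ones, and the order of these 3 changed with the longest transcript as the length.

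Because most T cell genes were lower, each gene was also read against the summed normalized count of the CD3 complex genes Cd3d, Cd3e, Cd3g and Cd247 of its own library, a measure that no library scaling can change. That sum was 218115 and 216301 in the WT-labelled libraries and 129620 and 132169 in the knockout-labelled ones. Prf1 stood at 13.7% and 13.6% of it in the WT-labelled libraries and at 13.4% and 13.3% in the others. Fasl stood at 8.65% and 8.70% against 8.92% and 8.66%, and Cst7 at 10.1% and 10.5% against 9.93% and 10.2%. For Cst7 and Fasl the groups overlapped, and for Prf1 they were apart by a small margin. Nkg7 had 122% and 136% against 118% and 119%, again lower without overlap, and Tnfsf10 1.16% and 1.22% against 1.42% and 1.10%.

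The other 5 genes stood higher against CD3 in both knockout-labelled libraries, without overlap. Unc13d went from 3.74% and 3.72% to 6.61% and 6.31%, the largest rise in this ratio, at 1.73-fold. Rab27a went from 3.54% and 3.44% to 5.63% and 5.66%, and Fas from 0.434% and 0.479% to 0.767% and 0.702%. Srgn went from 16.4% and 17.6% to 26.6% and 24.2%. Stx11, although lower on the deposited scale, went from 1.21% and 1.14% to 1.57% and 1.56%.

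With the libraries scaled to their CD3 sums, limma over all genes called these 5 of the 10 genes higher and 0 lower, beside 71.9% of all genes higher and 0.348% lower, so a call in this direction was the common case. The log2 differences were 0.79 for Unc13d, 0.69 for Rab27a, 0.69 for Fas, 0.58 for Srgn and 0.41 for Stx11, where the median of all genes was 0.74. For the 5 genes without a call the 95% intervals were -0.11 to 0.04 for Prf1, -0.13 to 0.05 for Cst7, -0.07 to 0.10 for Fasl, -0.23 to 0.004 for Nkg7 and -0.22 to 0.36 for Tnfsf10. The interval of Tnfsf10 is wide, and the lower end for Nkg7 is a 0.852-fold level against CD3. These values depended on the yardstick. Against the summed Cd8a and Cd8b1, Prf1 went from 29.9% and 29.4% to 24.5% and 24.4%, Fasl from 18.8% and 18.8% to 16.3% and 15.9%, Cst7 from 22.03% and 22.7% to 18.1% and 18.7% and Nkg7 from 265% and 293% to 216% and 219%. The 5 genes that stood higher against CD3 stood higher against this sum too, without overlap. The ratios of knockout-labelled to WT-labelled means were 1.46 for Unc13d, 1.36 for Rab27a, 1.36 for Fas, 1.26 for Srgn and 1.12 for Stx11. For Tnfsf10 (0.891) the groups overlapped. Of the coreceptor genes in this sum, Cd8a, which dendritic cells also express, had a log2 difference of -0.33 and Cd8b1 of -0.60. The CD3 complex genes lay between -0.81 and -0.63. The T cell genes thus did not fall alike, and the T cell receptor gene Trac had 104094 and 103284 normalized counts against 104596 and 101353 (log2 difference -0.01). The other receptor constant genes, Trbc1 and Trbc2, had log2 differences of -0.37 and -0.16. Trac was chosen as a yardstick after its values were seen. As it hardly differed between the groups, ratios to it return the falls of the deposited scale by construction and are no separate check. Prf1 stood at 28.8% and 28.5% of Trac in the WT-labelled libraries and at 16.6% and 17.3% in the others, a ratio of 0.593. The same ratio was 0.592 for Cst7, 0.560 for Nkg7, 0.615 for Fasl, 0.640 for Tnfsf10, 0.807 for Stx11 and 0.906 for Srgn. Each was lower without overlap, as on the deposited scale. Rab27a (0.982) and Fas (0.976) overlapped, and Unc13d (1.05) was higher.

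**Figure D2:**
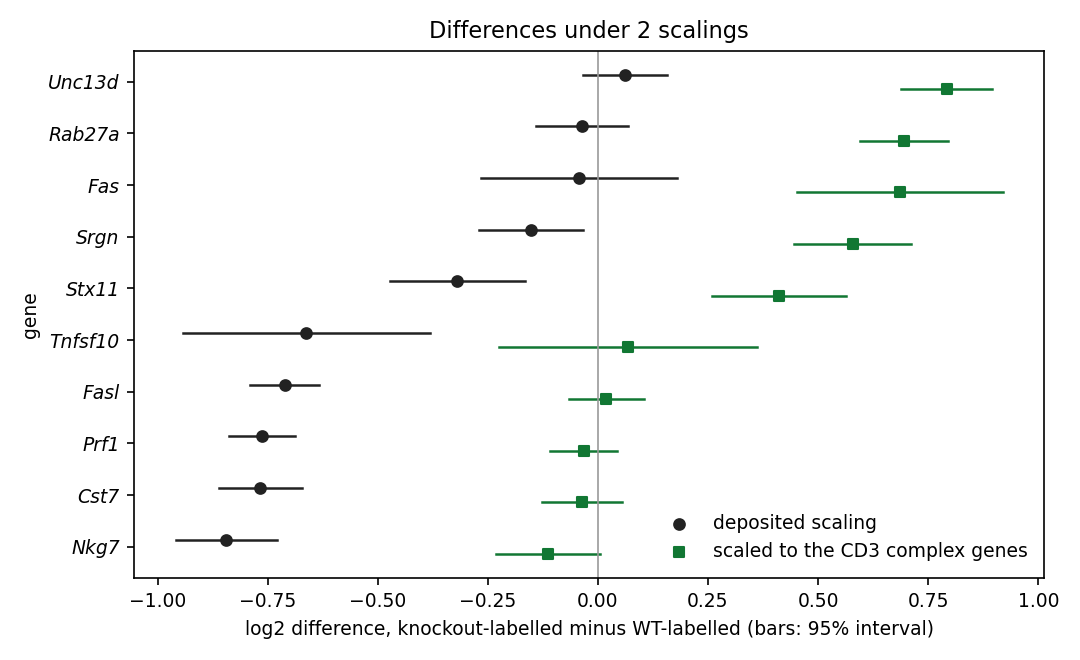
Log2 differences of the knockout-labelled libraries minus the WT-labelled ones with their 95% intervals from limma, on the deposited scaling (circles) and with each library scaled to its CD3 complex genes (squares). On the second scaling Prf1, Cst7, Fasl, Tnfsf10 and Nkg7 have intervals that include 0, and the other 5 genes lie between 0.41 and 0.79.

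**Figure D3:**
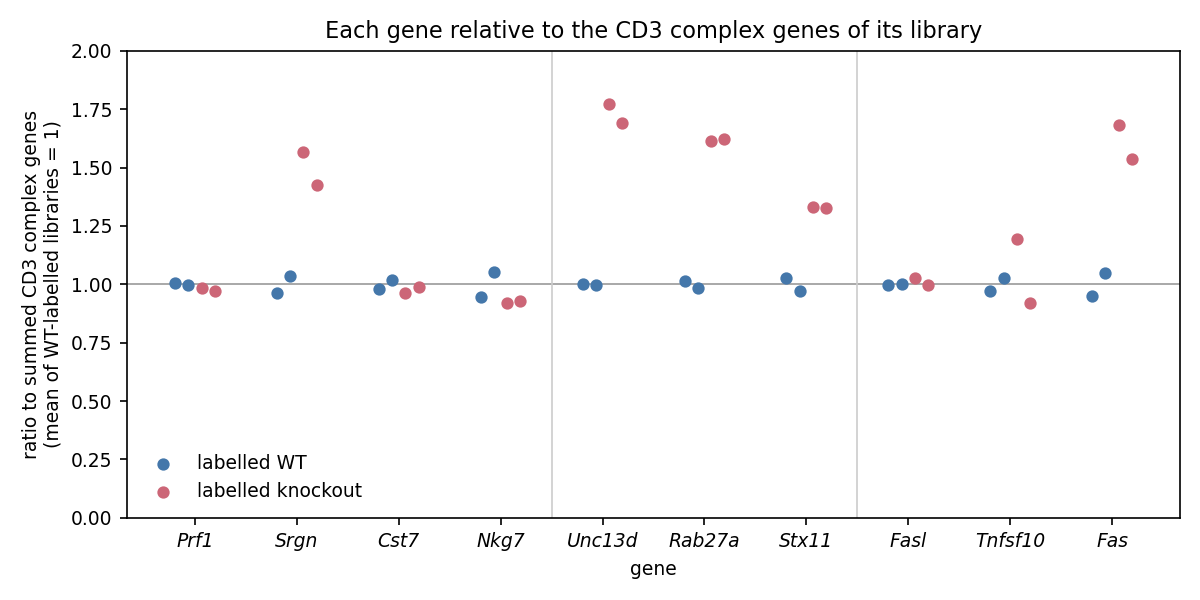
Ratio of each gene to the summed CD3 complex genes of its library, divided by the mean ratio of the WT-labelled libraries, with 1 point per library. Prf1, Cst7 and Fasl stay close to 1 in all 4 libraries, and Unc13d, Rab27a, Fas and Srgn lie well above 1 in both knockout-labelled libraries.

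Natural killer cells express many of the same genes. Of 12 NK cell markers tested, 3 rose and 5 fell, with sums of 313684 and 343758 in the WT-labelled libraries against 249297 and 255451, most of them reads of Nkg7, which is on the list. Ncr1, a receptor that defines NK cells, gave 11.2 and 28.6 normalized counts in the WT-labelled libraries and 22.5 and 17.5 in the others, which is near 0. The markers that fell were Klrb1c, which encodes NK1.1, from 1918 and 2054 to 1149 and 1129, Cd160 from 4157 and 4348 to 2686 and 2629, the granzyme gene Gzma from 23494 and 24992 to 15593 and 16867, Eomes, and Nkg7. The part of NK cells in the levels of the 10 genes was not tested. The markers that rose were Tyrobp, Fcer1g and Klrb1b, of which Tyrobp, a signalling adaptor that myeloid and plasmacytoid dendritic cells share, went from 1414 and 1379 to 48485 and 49111.

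The promoters of the 5 genes that fell by a like amount are shown as a description. Genes outside the 10 fell as much, among them the CD3 complex genes (-0.81 to -0.63), and shared control of the 5 was not tested. The windows are the 250 bases before the start that RefSeq annotates on GRCm38.p6, and positions below are counted from that start. It differs from the GENCODE start used for the gene coordinates above: it lies 65 bases inside the GENCODE gene for Nkg7, 49 for Tnfsf10 and 3 for Prf1, so the last bases of these windows are within the GENCODE gene. A window was found for 9 of the 10 genes. Unc13d was not among them. The windows of Prf1 (chr10:61297586-61297835, plus strand), Nkg7 (chr7:43436888-43437137, plus strand), Cst7 (chr2:150570165-150570414, plus strand), Fasl (chr1:161788496-161788745, minus strand) and Tnfsf10 (chr3:27316827-27317076, plus strand) are given with that of Rab27a (chr9:73044560-73044809, plus strand), whose groups overlapped and for which the first of its windows is shown. Each reads 5′ to 3′ on the gene's strand and ends at the base before the start. Capitals mark letters of the RUNX core (TGTGGT), the T-box core (AGGTGT), the ETS core (CCGGAA or CAGGAA) or the STAT motif (TTC and GAA separated by any 3 bases), on either strand.
Prf1: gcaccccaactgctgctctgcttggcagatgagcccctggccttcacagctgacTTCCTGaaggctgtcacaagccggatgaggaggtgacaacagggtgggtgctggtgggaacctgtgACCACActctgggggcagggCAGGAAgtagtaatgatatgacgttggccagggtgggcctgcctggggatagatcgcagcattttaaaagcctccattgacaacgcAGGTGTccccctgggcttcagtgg
Nkg7: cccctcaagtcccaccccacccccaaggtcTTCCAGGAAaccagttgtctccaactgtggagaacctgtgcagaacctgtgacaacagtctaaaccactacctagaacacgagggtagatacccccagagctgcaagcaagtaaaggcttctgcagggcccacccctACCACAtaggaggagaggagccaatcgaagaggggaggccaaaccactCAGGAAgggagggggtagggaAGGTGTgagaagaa
Cst7: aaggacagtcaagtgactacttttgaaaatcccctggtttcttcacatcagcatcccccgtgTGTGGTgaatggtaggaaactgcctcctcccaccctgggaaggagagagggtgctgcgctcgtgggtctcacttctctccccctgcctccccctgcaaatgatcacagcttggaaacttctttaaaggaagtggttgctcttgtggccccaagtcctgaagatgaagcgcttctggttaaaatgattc
Fasl: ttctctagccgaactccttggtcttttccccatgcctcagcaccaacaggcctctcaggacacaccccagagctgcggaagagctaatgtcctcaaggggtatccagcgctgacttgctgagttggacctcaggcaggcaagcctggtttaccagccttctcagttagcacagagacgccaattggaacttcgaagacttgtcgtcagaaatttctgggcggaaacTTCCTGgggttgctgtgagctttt
Tnfsf10: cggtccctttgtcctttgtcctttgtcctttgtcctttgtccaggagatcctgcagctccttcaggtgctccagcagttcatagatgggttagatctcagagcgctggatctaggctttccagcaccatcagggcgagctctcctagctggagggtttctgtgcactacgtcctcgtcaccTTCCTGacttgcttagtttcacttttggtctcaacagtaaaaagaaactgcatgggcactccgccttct
Rab27a: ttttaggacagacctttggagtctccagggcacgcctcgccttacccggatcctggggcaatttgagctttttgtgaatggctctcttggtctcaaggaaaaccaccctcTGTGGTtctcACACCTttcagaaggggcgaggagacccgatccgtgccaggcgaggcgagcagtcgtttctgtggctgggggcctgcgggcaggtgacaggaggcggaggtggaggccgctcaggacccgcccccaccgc
The windows of Prf1 and Nkg7 each held a RUNX core, a T-box core and an ETS core. In Prf1 the RUNX letters lay 130 to 125 bases before the start and the T-box letters 24 to 19 bases before it, and in Nkg7 83 to 78 and 14 to 9 bases before it. In Nkg7 the ETS letters farther from the start lie inside the STAT match. Cst7 held a RUNX core alone and Fasl and Tnfsf10 an ETS core alone, while this window of Rab27a held a RUNX and a T-box core. RUNX letters occurred in 5 of the 9 genes and in 14% of 32851 windows of this length, T-box letters in 3 of 9 and 11.8%, and ETS letters in 5 of 9 and 35.1%. A gene with a second window, as Srgn and Rab27a have, was counted if either window matched, whereas the shares are per window. The composite elements at which interferon regulatory factors bind with ETS factors (EICE, GGAA and GAAA separated by any 2 bases) were in 0 of the 9 genes and in 2.30% of all windows. The interferon response letters (ISRE, GAAA and GAAA separated by any 2 bases) were in 1 gene, Srgn, and in 2.98% of windows, and the composite elements with AP-1 (AICE, TGANTCA directly after GAAA or 4 bases after TTTC) in 0 genes and 0.198%. The ISRE and RUNX letters of Srgn lay only in its second window, whose start is 19694 bases inside the GENCODE gene. The AP-1 letters themselves (TGANTCA) were in Fas and in 6.75% of windows, the STAT letters in Fas and Nkg7 and in 7.02%, and a TATA box (TATAAA) in Srgn and in 12.4%. Such matches describe letters, not binding.

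Other genes of granule transport and fusion moved in both directions. Of 28 tested, 6 rose and 9 fell, with a median log2 difference of -0.05. Median centring gave 2 and 20 in these directions and CD3 scaling 28 and 0. For this list and those that follow, the shares of all genes called higher and lower were 19.9% and 13.4%. With median centring these shares were 13% and 39.2%, and with CD3 scaling 71.9% and 0.348%. Stxbp2, which encodes Munc18-2, the partner of syntaxin 11, went up from 7915 and 7767 to 10595 and 11001 (log2 difference 0.46, 0.16 with median centring, limma adjusted p = 3.15e-04), so Stx11 and its partner moved in opposite directions on the deposited scale. Stx7, a syntaxin of late endosomes, rose from 1226 and 1043 to 6080 and 6136, a log2 difference of 2.43. Vamp2, a vesicle SNARE, rose by 0.35 (0.05 with median centring). Sytl3, a Rab27 effector of the synaptotagmin-like family, fell by 0.51, Wipf1, a partner of the Wiskott-Aldrich protein in actin assembly, by 0.44, and Esyt1, an extended synaptotagmin, by 0.42 on the log2 scale. Scaled to CD3, these 3 lay at 0.22, 0.29 and 0.31.

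Of 15 partners of granule content and lysosomes, 7 rose and 4 fell, with a median of 0.21, beside 5 and 7 with median centring and 14 and 0 with CD3 scaling. Ctsw, which encodes cathepsin W of cytotoxic lymphocytes, fell from 50303 and 52693 to 32601 and 32059 (log2 difference -0.67, limma adjusted p = 2.86e-05), a size close to those of Prf1 and Cst7, and scaled to CD3 it was at 0.06. Ctsd, the protease cathepsin D, fell by 0.52 and Serpinb9, the inhibitor that shields killer cells from granzyme B, by 0.47 on the log2 scale, and with CD3 scaling these were 0.21 and 0.26. Among those that rose were other lysosomal genes. Ctsl, cathepsin L, went from 641 and 644 to 24146 and 23505, Lamp2, a lysosomal membrane protein, rose by 1.33 and Gaa, the acid glucosidase, by 1.03. These rises stood beside the plasmacytoid dendritic cell markers above, and the part of those cells in them was not tested.

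In death receptor signalling, 4 of 32 tested genes rose and 9 fell, with a median of -0.06, so 19 did not pass. Median centring gave 0 and 22 in these directions and CD3 scaling 27 and 0. Fadd, the adaptor of the Fas complex, and Casp8, the caspase it recruits, did not pass, with log2 differences of -0.04 and -0.05. Ltb, the membrane partner of lymphotoxin, fell from 35071 and 34417 to 21433 and 22537 (log2 difference -0.66, limma adjusted p = 4.20e-05). Tnfsf14, the ligand LIGHT, fell by 0.67 and Tnfrsf1b, a TNF receptor, by 0.39 on the log2 scale, and with CD3 scaling Ltb, Tnfsf14 and Tnfrsf1b were at 0.07, 0.06 and 0.34. Birc3 and Birc2, inhibitors of apoptosis, rose by 0.46 and 0.27, and Casp9 by 0.35, and with median centring these were 0.16, -0.03 and 0.05. Tnfrsf10b, the mouse receptor of TRAIL, had 279 and 186 in the WT-labelled libraries and 413 and 315 in the others and did not pass (limma adjusted p = 0.0801). Fadd, Casp8 and Tnfrsf10b were named after their values were seen.

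Paralogs of the 10 genes were mostly higher or without a call. Of 22 tested, 9 rose and 1 fell, with a median of 0.22, beside 7 and 4 with median centring and 19 and 0 with CD3 scaling. Mpeg1, which encodes perforin-2, the pore-forming protein of macrophages and dendritic cells, went from 341 and 559 in the WT-labelled libraries to 51265 and 49434 in the knockout-labelled ones (log2 difference 6.85, limma adjusted p = 3.23e-04). Per length, Mpeg1 rose from 1.71 ± 0.566 to 200.6 ± 5.18 RPKM and so stood above Prf1 in the knockout-labelled libraries (SD, n = 2 each). Prf1 per Mpeg1 was 87.8 and 52.6 in the WT-labelled libraries and 0.340 and 0.355 in the others. Cst3, which encodes cystatin C, a secreted cystatin abundant in dendritic cells, rose from 8839 and 8924 to 31546 and 32886 (log2 difference 1.86). Cst7 per Cst3 thereby went from 2.50 and 2.55 to 0.408 and 0.410.

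Of the paralogs of the release genes, Rab27b, Stx3 and Unc13b were scarce. Rab27b, the sister of Rab27a, gave 32.6 and 26.5 normalized counts in the WT-labelled libraries and 77.4 and 65.2 in the knockout-labelled ones (limma adjusted p = 0.0227), and Stx3 had 107 and 103 against 218 and 186 (adjusted p = 0.0113). Unc13b had 33.6 and 46.0 against 46.1 and 43.8 and did not pass (limma adjusted p = 0.694). Tnfsf13b, which encodes the B cell survival factor BAFF of the same ligand family as Fasl, fell by 0.64 and was at 0.09 with CD3 scaling. The markers of plasmacytoid dendritic cells that moved with these paralogs are given above, and their part was not tested.

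**Figure D4:**
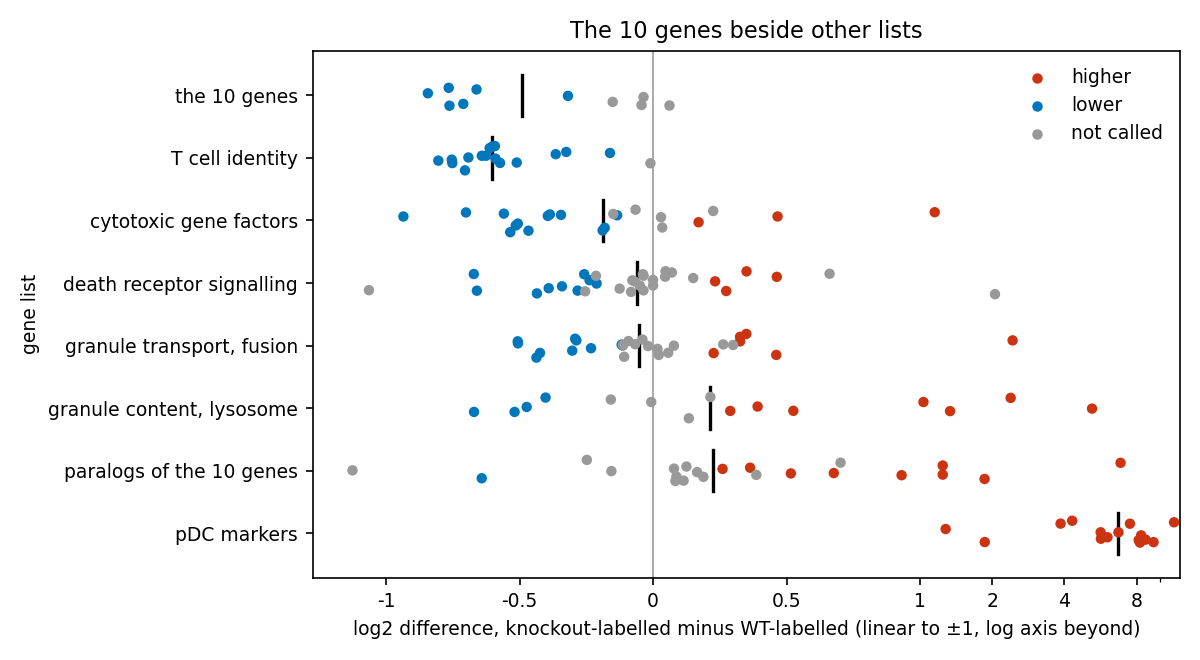
Log2 differences of the tested genes of 8 lists, with 1 point per gene colored by its limma call and a black line at the list median, on an axis that is linear up to 1 and logarithmic beyond. The 10 genes have a median of -0.49 and the T cell identity genes of -0.60, while the paralogs (0.22) and the plasmacytoid dendritic cell markers (pDC, 6.71) lie higher. The pDC median is over all 15 markers, of which 2 passed the filter with a WT-labelled value below 10.

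The pattern over the 4 libraries most like that of Prf1, by Euclidean distance of centred log2 values among 7739 genes with a mean of at least 1000, was that of Nrarp, a feedback regulator of Notch, at a distance of 0.0221. It was followed by Trbj2-1, a joining segment of the T cell receptor beta chain, at 0.0266, Cish, a feedback inhibitor of cytokine signalling, at 0.0270, the kallikrein Klk8 at 0.0334, and Tstd3 at 0.0386. Cish gave 16869 and 16609 normalized counts in the WT-labelled libraries and 10000 and 10092 in the knockout-labelled ones. With 4 libraries this likeness describes little more than an equal difference between the groups.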

How the data were processed

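Trim Galore 0.4.4, HISAT2 2.2.1, StringTie 2.1.4, DESeq2 and the mm10 build are named in the submitters' processing notes. For settings, annotation and strand use the sources used here give nothing. The deposited values are normalized counts, that is, a signal the authors made by dividing reads by 1 size factor per library, per the file headers. Their table also gives a mean, a log2 fold change (WT over knockout) with its standard error, a Wald score, a p-value and an adjusted p-value, per the file headers. Dividing each column by its smallest step gave whole reads for 100% of values within 0.01 reads.

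Groups and replicate numbers came from the sample titles. Genes that reached 10 in 2 or more libraries (18378 of 49490) were tested with limma 3.58.1 (eBayes, trend, robust) in R 4.3.3 on log2(value + 1), with no covariate, two-sided, Benjamini-Hochberg adjusted over all genes at 0.05. Fold changes on this scale understate changes of low genes. Printed folds divide one group mean by the other. Alternatives were other pseudocounts and filters, median centring, scaling to the CD3 genes, a replicate block, leaving out each library, limma without robust variance, and edgeR 4.0.16 (TMM) and DESeq2 1.42.0 on recovered reads. No 2 libraries were duplicates: chi-square over its degrees of freedom was 21.7 within WT and 6.45 within knockout.

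The 10 genes, the lists and the motifs were chosen with earlier results of these data known. Named beyond the 10 were Irf8, the CD3 genes, nearest paralogs, up to 3 genes per direction and list with the smallest adjusted p and groups that did not overlap, up to 2 markers per cell type by mean, and the 5 genes closest to Prf1. Other genes named were chosen after their values were seen. Some genes are not reported here. Trac was added as a yardstick after seeing the data. Coordinates and lengths came from GENCODE M21 on GRCm38, the assembly of mm10, which held 95.2% of the table's names once.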

Additional observations from a re-analysis of the deposited data

How the results depend on the processing

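Prf1, Nkg7, Cst7, Fasl and Tnfsf10 stayed lower and past the threshold under each alternative except scaling to the CD3 genes. Over all genes, median centring gave 2389 higher and 7210 lower, and CD3 scaling 13222 higher and 64 lower, in place of 3662 and 2469. Of the 10 genes, median centring called 10 lower, and CD3 scaling called 5 higher and 0 lower, in place of 0 and 6. Values with the opposite sign under CD3 scaling were 0.58 for Srgn, 0.69 for Rab27a, 0.41 for Stx11, 0.019 for Fasl, 0.068 for Tnfsf10 and 0.69 for Fas. Unc13d was -0.24 with median centring. Leaving out each library gave 1309 to 4137 genes higher and 630 to 2759 lower. The lowest were 1309 and 630 without knockout-labelled replicate 2, with 1358 and 694 without knockout-labelled replicate 1, where 1 library stands for a group and is assumed to vary like the other. Fas lay between -0.11 and 0.021 and turned sign without WT-labelled replicate 2 or knockout-labelled replicate 2. Srgn passed with a pseudocount of 10, a minimum of 50, median centring, edgeR, DESeq2 and without WT-labelled replicate 1. With the replicate number as a block, 3415 genes were higher and 2168 lower, and 6 of the 10 genes were lower. Same-numbered libraries did not deviate together (correlation 0.0173 over genes). With 2 libraries in each group this cannot decide whether the numbers pair the samples. The cause of these shifts was not tested. Fas, the least abundant, had at least 928 normalized counts in each library, and each group had 2 libraries.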

Other observations

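Factors with a described part in cytotoxic gene expression mostly fell: of 21 tested, 13 fell and 3 rose, with a median log2 difference of -0.19. Median centring gave 17 and 2 in these directions and CD3 scaling 0 and 18. Of all genes tested, 13.4% were called lower and 19.9% higher, 39.2% and 13% with median centring, and 0.348% and 71.9% with CD3 scaling. Id2, a regulator of effector T cells, fell from 70592 and 73554 in the WT-labelled libraries to 44999 and 43636 in the knockout-labelled ones (log2 difference -0.70, limma adjusted p = 2.11e-05). Eomes, a T-box factor that drives Prf1, fell from 14625 and 14650 to 10082 and 10114 (log2 difference -0.54), and Bhlhe40 fell by 0.39. Tbx21, the T-box factor T-bet, which was named after its values were seen, went from 13829 and 12853 to 9121 and 8973 (log2 difference -0.56). The factors that rose were Zeb2, by 1.15, Stat5a, by 0.47, and Tcf7, by 0.17, and Tcf7 was at -0.13 with median centring. Scaled to the CD3 genes, Eomes was at 0.20, Id2 at 0.03 and Bhlhe40 at 0.34.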
